A study of Homo sapiens with 12 samples.

Results

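EGR1, EGR2, EGR3 and EGR4, the 4 genes of the early growth response family, were followed across 12 RNA-seq libraries of PANC-1 cells. The members were found by symbol, and all 4 had an identifier among the 60669 genes of the count tables and passed the filter on low counts that left 16695 genes for testing. PANC-1 is an established human cell line from a pancreatic ductal adenocarcinoma. They carried, for 72 h, either a control siRNA or one that targets the salt-inducible kinase SIK3, named AS1 in the sample titles, and were left without TNF-α or given it at 100 ng/mL for 30 min or 4 h. TNF-α is an inflammatory cytokine that activates NF-κB and MAP kinase signalling. Each of the 6 combinations had 2 biological replicates from this single line, and every value below rests on n = 2 libraries a condition.

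The labels do not agree on which library is which. The words in the deposited files (Scr1 or SIK3, with CLM, 30min or 4h) name another condition than the sample titles for 8 of the 12 libraries and the same one for 4. Conditions are given here by the words of the files, with Scr1 read as control siRNA and CLM as no TNF-α, a reading the labels do not state. By title, the Scr1 30min libraries are SIK3 siRNA unstimulated, Scr1 4h is control siRNA with TNF-α for 30 min, SIK3 CLM is SIK3 siRNA with TNF-α for 30 min, and SIK3 30min is control siRNA with TNF-α for 4 h. Scr1 CLM (control siRNA, unstimulated) and SIK3 4h (SIK3 siRNA, TNF-α 4 h) are the same by both. Since each condition holds the same 2 libraries under either naming, 1 fit served both, and only the name of a comparison depends on the choice.

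SIK3 mRNA followed the words of the files. It lay at 34.3 to 68.7 CPM (counts relative to a fixed library total, scaled by TMM) in the 6 Scr1 libraries and at 16.3 to 24.0 CPM in the 6 SIK3 libraries, with no overlap, and was 2.45-fold lower in SIK3 than in Scr1 at CLM (edgeR quasi-likelihood test, adjusted p = 0.0231), 2.69-fold at 30min (adjusted p = 0.0146) and 2.42-fold at 4h (adjusted p = 0.0244). NFKBIA, an early NF-κB target, stood at 234 and 198 CPM in Scr1 CLM, 654 and 622 CPM in Scr1 30min and 1029 and 853 CPM in Scr1 4h, and at 166 and 147, 314 and 288, and 554 and 567 CPM in the SIK3 libraries in the same order. Gene counts per library ran from 13535825 to 22699756, and a count of 0 allows a level of up to 0.132 to 0.222 CPM (3 counts, counting error only). The epithelial keratin genes KRT8, KRT18 and KRT19 were at 717 CPM or more in every library, KRT7 at 5.91 to 11.7 CPM, the mesenchymal gene VIM at 1353 CPM or more, the leukocyte gene PTPRC at no more than 0.0551 CPM, and the acinar genes PRSS1, CPA1 and CELA3A had no count. Reads outside annotated genes made up 16.5 and 17.1% in the SIK3 4h libraries and 8.35 to 10.5% in the remaining 10. This share moves with every comparison that uses SIK3 4h, and its part in those results was not tested.

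**Figure D1:**
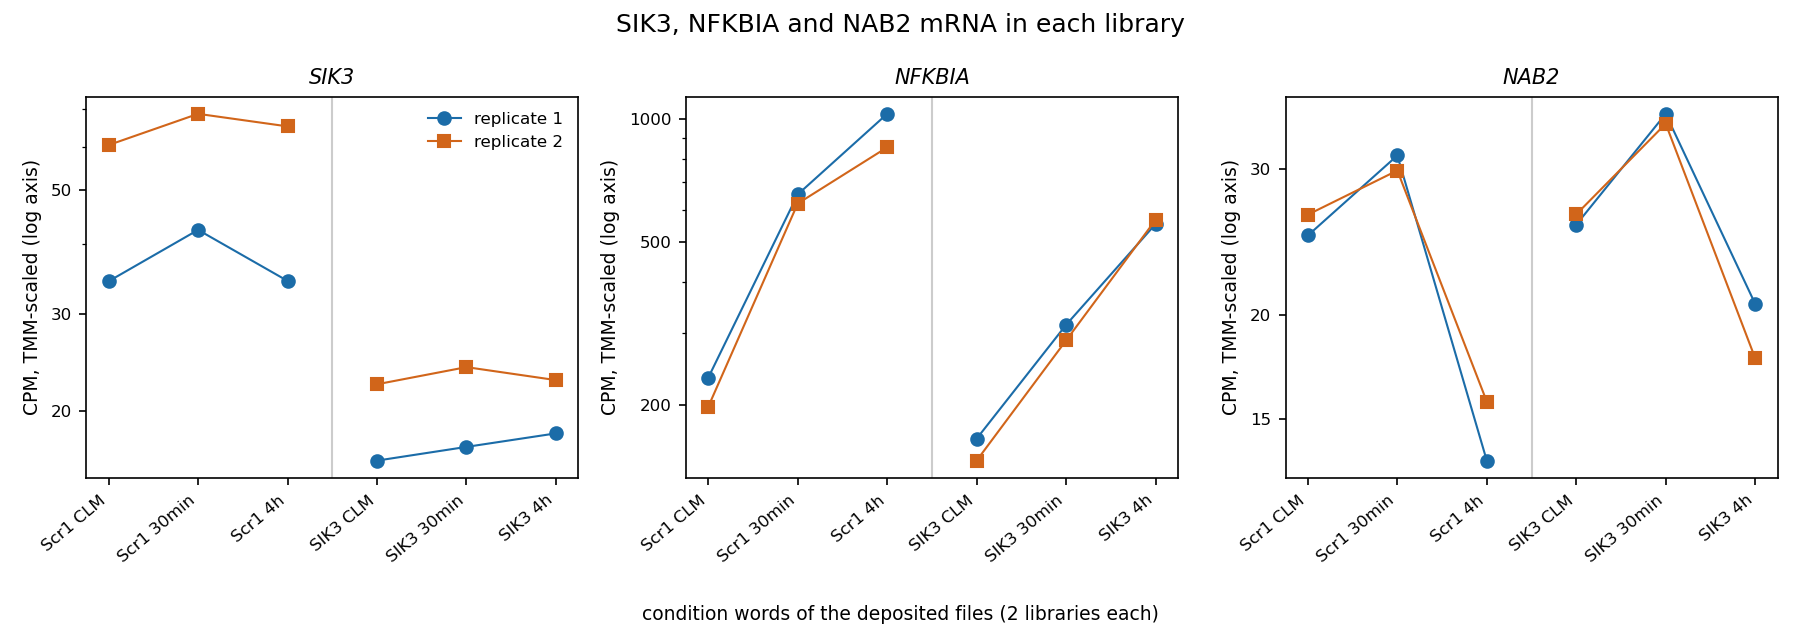
SIK3, NFKBIA and NAB2 mRNA (TMM-scaled CPM, log axis) in the 12 libraries by the condition words of the files, points joined within a replicate number. The 6 SIK3 libraries hold 16.3 to 24.0 CPM of SIK3, all below the 6 Scr1 libraries at 34.3 to 68.7 CPM.

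The EGR proteins are zinc finger transcription factors that share a DNA-binding domain of the same kind and recognise GC-rich sites. Their genes are immediate early genes: the mRNA appears within minutes of a stimulus without new protein synthesis, mainly through MAP kinases that act on serum response factor (SRF) with its ternary complex partners at CArG boxes and on CREB-type factors at cyclic AMP response elements, and it decays quickly. EGR1, EGR2 and EGR3 bind the corepressors NAB1 and NAB2, and NAB2 is itself induced by EGR factors, which closes a feedback loop.

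The 250 bases before the transcription start are shown because elements that drive immediate early genes are commonly found there. Sequences are from RefSeq (GRCh38.p14), in the direction of transcription, with CArG boxes and the core TGACG of the cyclic AMP response element (CGTCA on the other strand) in capitals. Of 3 EGR2 starts in the table only 1 window held such a match and is shown, and of EGR4 only the 93 bases are shown that lie before the first base GENCODE annotates as exon. A window of EGR3 was not analysed here.
EGR1, chr5:138465229-138465478, plus strand: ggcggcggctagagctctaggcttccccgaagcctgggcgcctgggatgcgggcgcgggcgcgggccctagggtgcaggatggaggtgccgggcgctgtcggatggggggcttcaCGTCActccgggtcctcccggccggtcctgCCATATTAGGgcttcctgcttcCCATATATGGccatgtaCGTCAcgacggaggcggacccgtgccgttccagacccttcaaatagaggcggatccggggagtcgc
EGR2, chr10:62816367-62816616, minus strand: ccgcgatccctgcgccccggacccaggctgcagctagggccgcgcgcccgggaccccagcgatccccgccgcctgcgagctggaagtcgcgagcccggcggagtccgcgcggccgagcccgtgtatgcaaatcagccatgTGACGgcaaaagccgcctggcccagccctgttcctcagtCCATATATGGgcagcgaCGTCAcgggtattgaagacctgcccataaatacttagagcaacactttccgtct
EGR4, chr2:73293706-73293798, minus strand: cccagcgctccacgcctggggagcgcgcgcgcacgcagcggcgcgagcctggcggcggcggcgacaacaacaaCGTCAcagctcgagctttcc

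The EGR1 window held 2 CArG boxes, at 105 to 96 and 83 to 74 bases before the start, and 2 TGACG cores on the other strand, at 135 to 131 and 66 to 62. The EGR2 window held 1 CArG box, at 71 to 62, and 2 TGACG cores, at 110 to 106 and 54 to 50. The whole 250-base window of EGR4 held no CArG box, 2 TGACG cores on the other strand, at 177 to 173 and 109 to 105, and 1 match to the κB site at 152 to 143. The first base that GENCODE annotates as EGR4 exon lies 157 bases before this start. The κB match and the core at 109 to 105 come after that base. Among 35116 RefSeq windows of the same 250 bases, searched on both strands, 1.16% held a CArG box, 21.2% TGACG, 0.194% both and 5.21% a κB site. The EGR consensus GCGTGGGCG, found in 0.720% of windows, and TATAAA, found in 10.7%, were in none of the windows of these 3 genes. These are matches of letters and were not tested as binding sites.

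EGR1 (ENSG00000120738.7, chromosome 5, 138465490 to 138469315, plus strand, GRCh38) is the broadly expressed founder of the family. It was at 26.5 and 96.2 CPM in Scr1 CLM (replicates 1 and 2), 106 and 268 CPM in Scr1 30min, and 27.2 and 70.7 CPM in Scr1 4h. In the SIK3 libraries it was at 16.3 and 42.7 CPM in CLM, 52.5 and 177 CPM in 30min, and 23.8 and 56.9 CPM in 4h. Both 30min conditions were high in both replicates and the other conditions lower. Replicate 2 exceeded replicate 1 in all 6 conditions, by 2.39- to 3.63-fold, and the mean log2 gap of 1.49 was equalled or passed by 0.485% of the genes tested. Multimapping reads moved with the replicate number, at 4.94 to 17.6% of reads in replicate 1 and 10.2 to 45.3% in replicate 2, and their part in the gap was not tested. By mean the order was Scr1 30min (187 ± 115 CPM, SD), SIK3 30min (115 ± 88.2), Scr1 CLM (61.3 ± 49.3), Scr1 4h (48.9 ± 30.7), SIK3 4h (40.4 ± 23.4) and SIK3 CLM (29.5 ± 18.6), and every neighbouring pair in it overlapped.

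EGR2 (ENSG00000122877.13, chromosome 10, 62811996 to 62919900, minus strand), known for its role in Schwann cell myelination, was at 2.01 and 2.83 CPM in Scr1 CLM, 17.1 and 23.7 CPM in Scr1 30min, and 1.76 and 1.66 CPM in Scr1 4h. In the SIK3 libraries it was at 2.59 and 2.18 CPM in CLM, 36.4 and 52.9 CPM in 30min, and 2.39 and 4.52 CPM in 4h. The 2 SIK3 30min libraries were highest, the 2 Scr1 30min libraries next, and neither pair overlapped any other condition. The remaining 4 conditions followed at 3.46 ± 1.51 CPM (SIK3 4h), 2.42 ± 0.579 (Scr1 CLM), 2.38 ± 0.294 (SIK3 CLM) and 1.71 ± 0.0708 (Scr1 4h), where the first 3 overlapped and Scr1 4h lay below SIK3 CLM without overlap.

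EGR3 (ENSG00000179388.8, chromosome 8, 22687659 to 22693302, minus strand), a close relative of EGR2 known for muscle spindle development and lymphocyte tolerance, was at 0.634 and 0.636 CPM in Scr1 CLM, 4.00 and 8.19 CPM in Scr1 30min, and 3.34 and 8.46 CPM in Scr1 4h. In the SIK3 libraries it was at 0.920 and 2.11 CPM in CLM, 4.53 and 8.24 CPM in 30min, and 2.52 and 3.97 CPM in 4h. It was high in both 30min conditions and in Scr1 4h (6.38 ± 2.62 CPM in SIK3 30min, 6.10 ± 2.96 in Scr1 30min, 5.90 ± 3.62 in Scr1 4h), and these 3 conditions and SIK3 4h (3.25 ± 1.02) overlapped their neighbours. SIK3 CLM (1.51 ± 0.841) lay below them and above Scr1 CLM (0.635 ± 0.00128) without overlap. The Scr1 CLM level rested on only 12 and 9 counts, so its small SD does not show a precise level. An antisense gene, AC055854.1, overlaps EGR3 and held 11 counts over all libraries against 829 for EGR3. Whether counting used the strand is not given in the sources used here.

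EGR4 (ENSG00000135625.7, chromosome 2, 73290929 to 73293705, minus strand), best known from activated neurons and lymphocytes, was at 0.687 and 0.495 CPM in Scr1 CLM, 3.68 and 5.19 CPM in Scr1 30min, and 0.911 and 2.06 CPM in Scr1 4h. In the SIK3 libraries it was at 1.00 and 1.70 CPM in CLM, 5.35 and 7.89 CPM in 30min, and 2.72 and 3.53 CPM in 4h. The order was SIK3 30min (6.62 ± 1.80 CPM), Scr1 30min (4.43 ± 1.07), SIK3 4h (3.12 ± 0.571), Scr1 4h (1.48 ± 0.810), SIK3 CLM (1.35 ± 0.493) and Scr1 CLM (0.591 ± 0.136). Of these neighbours, only Scr1 4h and SIK3 CLM overlapped.

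**Figure D2:**
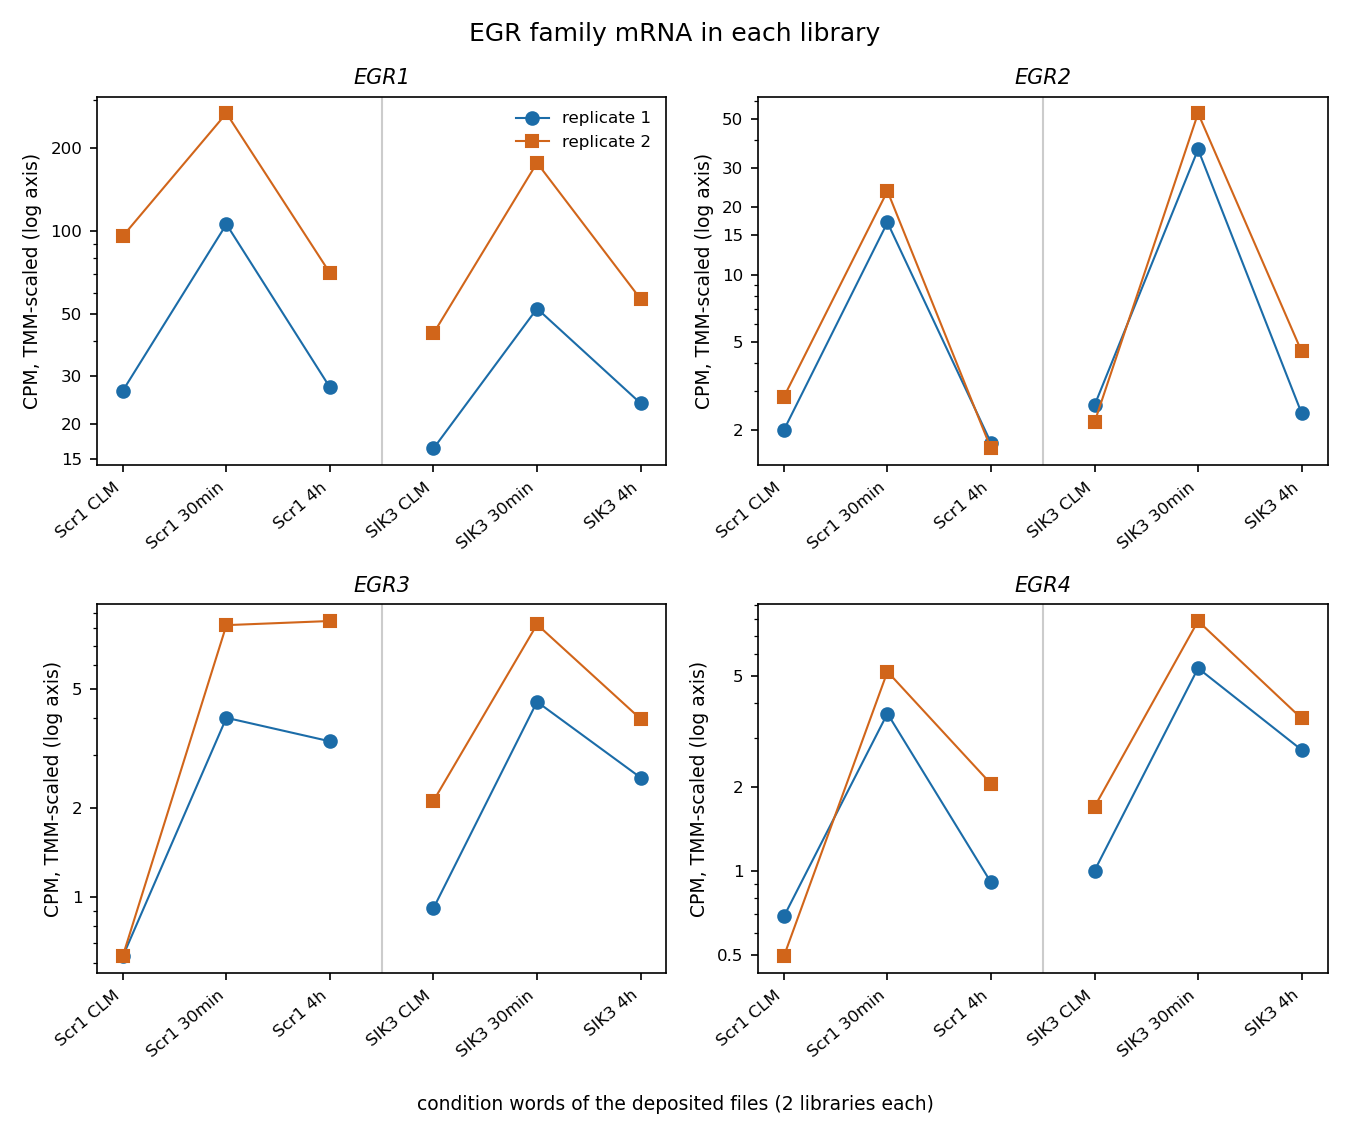
TMM-scaled CPM (log axis) of the 4 members in each of the 12 libraries by the condition words of the files, points joined within a replicate number. EGR2 peaks at 36.4 and 52.9 CPM in SIK3 30min, and EGR3 stays at 3.34 and 8.46 CPM in Scr1 4h, where EGR2 is at 1.76 and 1.66 CPM.

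Per length of exon, EGR1 was the main member in every library, with 56.2 to 96.5% of the family's summed CPM per kb. Its share was lowest in the SIK3 30min libraries, at 56.2 and 74.5%, where EGR2 held 33.1 and 18.9% of the sum. In Scr1 30min EGR2 held 11.4 and 6.70%, so that both replicates had the larger EGR2 share in SIK3 30min. EGR3 reached 6.73 and 6.81% in Scr1 4h against 1.39 and 0.413% in Scr1 CLM. EGR4 was largest in SIK3 4h, at 11.6 and 6.85%. These shares are descriptions of CPM per kb and had no test.

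**Figure D3:**
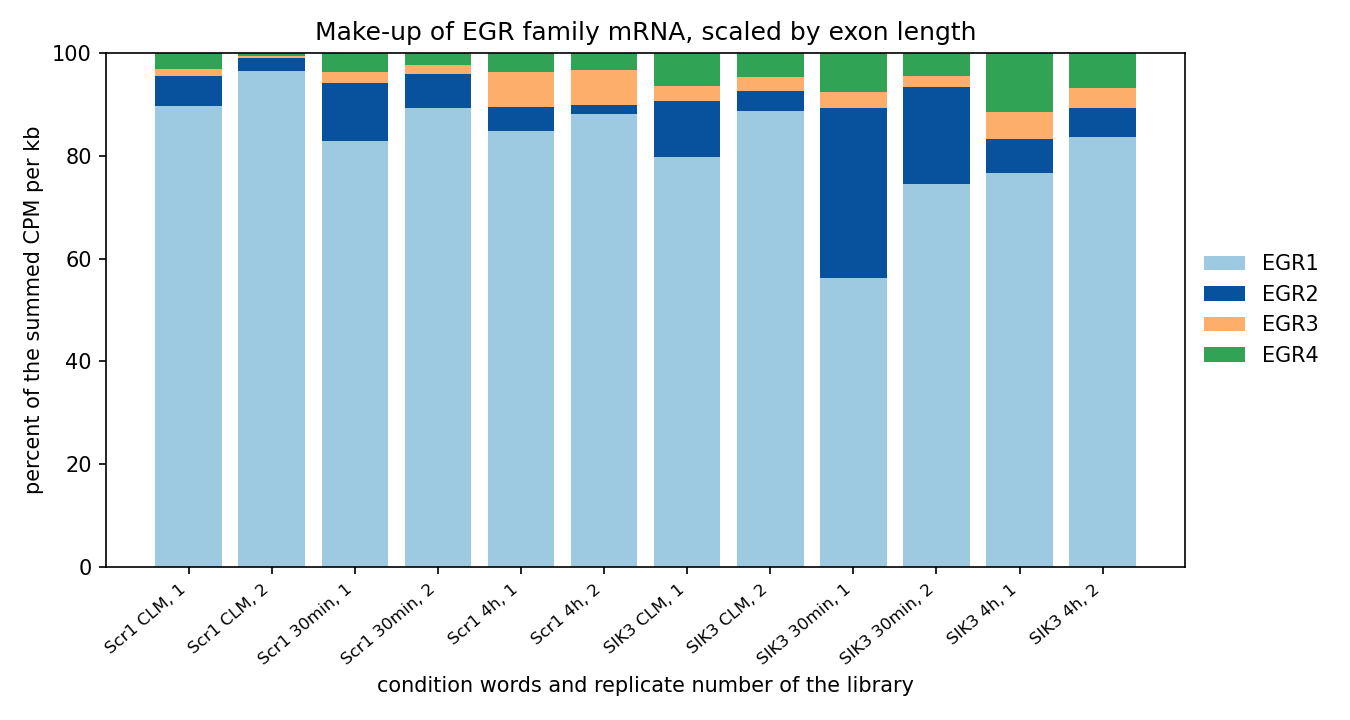
Percent of the summed CPM per kb of the 4 EGR genes held by each, 1 bar per library, labelled by condition words and replicate number. EGR2 fills 33.1 and 18.9% of the SIK3 30min bars and 11.4 and 6.70% of the Scr1 30min bars.

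By the words of the files, what TNF-α does to the family within 30 min is asked by 30min against CLM. With Scr1, EGR2 rose 8.53-fold (edgeR quasi-likelihood test, adjusted p = 0.00285) and EGR4 7.38-fold (adjusted p = 0.0380). EGR3 was 9.61-fold higher (adjusted p = 0.151) and EGR1 3.06-fold higher (adjusted p = 1), neither past the threshold of 0.05. In bulk RNA, more cells with the mRNA and more mRNA per cell cannot be told apart. With the replicate number as a block, which the pairing of the replicates called for, 4 of 4 members passed and not 2: EGR1 rose 3.27-fold (adjusted p = 1.61e-10), EGR2 8.44-fold (adjusted p = 4.33e-11), EGR3 9.10-fold (adjusted p = 1.29e-07) and EGR4 7.14-fold (adjusted p = 2.35e-06). Of all genes tested 0.294% passed in this comparison, and 2.78% with the block. Within replicates EGR1 was 4.01- and 2.79-fold higher. Without the block EGR4 lost its call when any 1 of the 4 libraries was left out, and EGR2 lost it without Scr1 CLM replicate 1 (adjusted p = 0.0739). With the block all 4 members kept their calls in each of the 4 omissions.

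With SIK3, EGR2 rose 18.6-fold (adjusted p = 0.000953). The other members were higher by 3.92-fold (EGR1, adjusted p = 1), 4.44-fold (EGR3, adjusted p = 0.583) and 5.06-fold (EGR4, adjusted p = 0.0855). With the replicate block 4 of 4 members passed instead of 1: EGR1 rose 3.71-fold (edgeR quasi-likelihood, adjusted p = 2.12e-10), EGR2 17.6-fold (adjusted p = 1.70e-13), EGR3 4.32-fold (adjusted p = 3.31e-06) and EGR4 4.98-fold (adjusted p = 1.23e-06). All of these calls were kept with any 1 of the 4 libraries left out. Of all genes tested 0.15% passed, and 3.37% with the block.

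Whether the change to 30min differed between the siRNA words was tested as an interaction. No member passed it (edgeR quasi-likelihood, 0 of 4, 1 of 4 at an unadjusted p under 0.05, and 0 of 4 by DESeq2 and by limma voom). The 1 was EGR2, with a difference of 1.12 on the log2 scale (unadjusted p = 0.0332, adjusted p = 1.00, 95% confidence interval 0.11 to 2.13). Of all genes tested 0% passed, and 0.264% with the block, where EGR2 stood at 1.06 (adjusted p = 0.148). The larger fold of EGR2 with SIK3 was thus not shown to differ from that with Scr1. The intervals for EGR1, EGR3 and EGR4 without the block, -2.3 to 3.0, -3.2 to 0.94 and -1.9 to 0.85, covered differences in either direction. With the block they were -0.12 to 0.49, -1.94 to -0.21 and -1.42 to 0.38, and that of EGR2 was 0.49 to 1.63. Those of EGR2 and EGR3 thus did not cover both directions with the block, though EGR3 did not pass either (edgeR quasi-likelihood, adjusted p = 0.457).

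**Figure D4:**
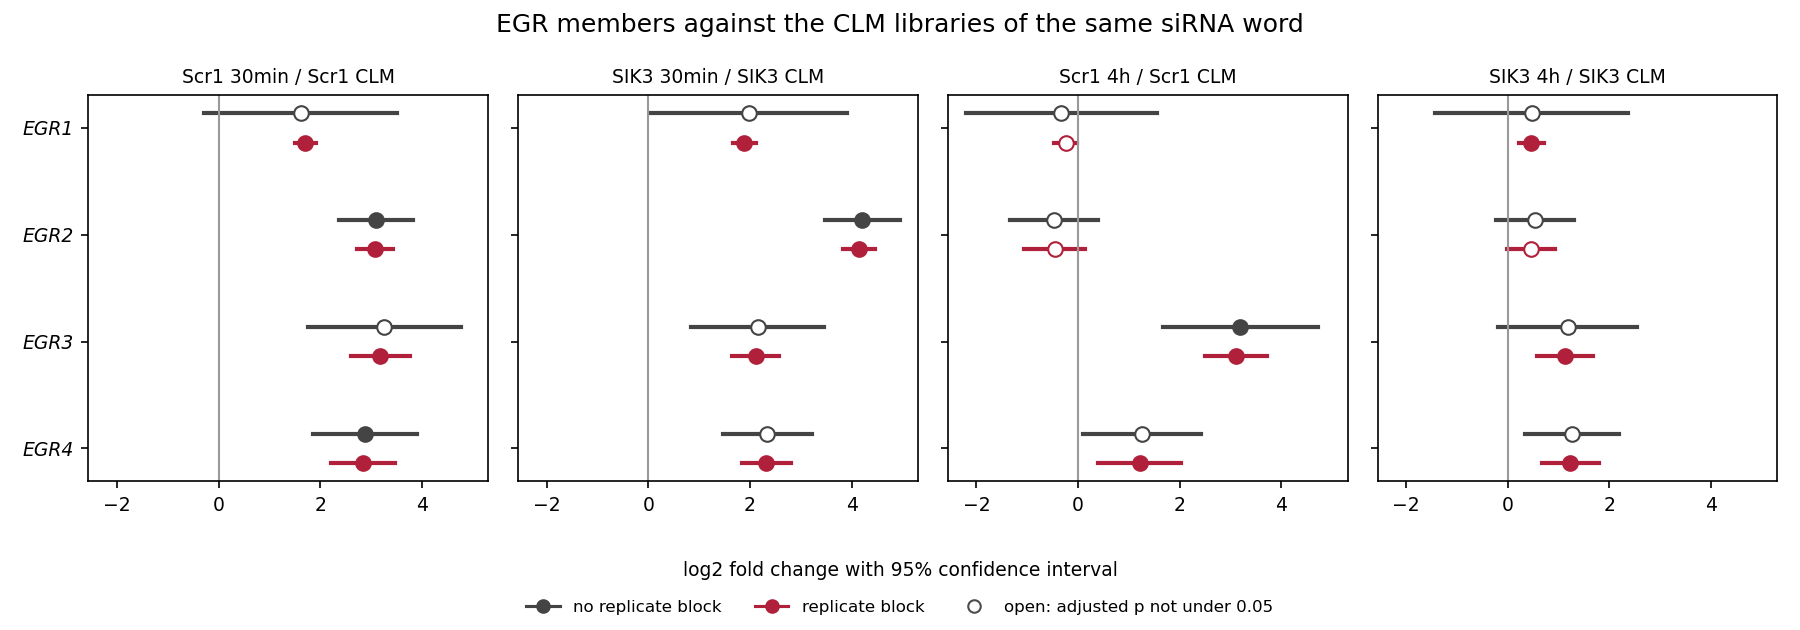
Log2 fold changes of the 4 members with 95% confidence intervals, 30min and 4h against CLM of the same siRNA word, from the fits without (grey) and with (red) the replicate block. Filled points passed an adjusted p of 0.05, as all 4 members did at 30min in both panels with the block.

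At 4h the members parted. In Scr1 4h against Scr1 CLM, EGR3 rose 9.15-fold (edgeR quasi-likelihood, adjusted p = 0.0162), close to its 9.61-fold difference at 30min, whereas EGR1 was at -0.33 on the log2 scale (95% confidence interval -2.21 to 1.55), EGR2 at -0.48 (-1.35 to 0.39) and EGR4 2.40-fold higher (adjusted p = 0.211). With the block EGR3 rose 8.62-fold (adjusted p = 3.30e-08) and EGR4 2.32-fold (adjusted p = 0.0288), 2 of 4 members instead of 1. Of all genes tested 8.99% passed, and 23.5% with the block. The call of EGR3 without the block was lost in 3 of the 4 omissions of a library, and with the block it was kept in all 4. The block call of EGR4 was lost in 2 of 4, without Scr1 CLM replicate 2 (adjusted p = 0.304) and without Scr1 4h replicate 2 (adjusted p = 0.345).

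Read directly against 30min, Scr1 4h held 11.9-fold less EGR2 (edgeR quasi-likelihood, adjusted p = 0.000122) and 3.08-fold less EGR4 (adjusted p = 0.0309), a call that only the omission of Scr1 4h replicate 2 kept without the block and all 4 omissions kept with it. EGR1 was 3.84-fold lower (adjusted p = 0.226), and this passed with the block (3.86-fold lower, adjusted p = 2.61e-12), which made 3 of 4 members instead of 2. EGR3 stood at -0.07 on the log2 scale (95% confidence interval -1.24 to 1.10, adjusted p = 0.976) and at 1.06-fold lower with the block (adjusted p = 0.816). Of all genes tested 11.1% passed, and 28.1% with the block. In both replicates, then, EGR1, EGR2 and EGR4 were lower in Scr1 4h than in Scr1 30min, while EGR3 was 1.20-fold lower in replicate 1 and 1.03-fold higher in replicate 2.

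In SIK3 4h against SIK3 CLM no member passed (0 of 4 by edgeR, 1 of 4 at an unadjusted p under 0.05, and 0 of 4 by DESeq2 and by limma voom). EGR3 was 2.27-fold higher (adjusted p = 0.389), EGR4 2.40-fold (adjusted p = 0.138), EGR1 1.38-fold (adjusted p = 0.891) and EGR2 1.45-fold (adjusted p = 0.520). With the block 3 of 4 rose, EGR3 2.19-fold (adjusted p = 0.00337), EGR4 2.35-fold (adjusted p = 0.00199) and EGR1 1.38-fold (adjusted p = 0.00648), and the EGR1 call was kept in 2 of 4 omissions of a library. Of all genes tested 4.42% passed, and 21.8% with the block. Against SIK3 30min, EGR2 was 12.8-fold lower (adjusted p = 0.000267), 1 of 4 members beside 7.08% of all genes. With the block all 4 were lower, EGR1 2.70-fold (adjusted p = 1.43e-09), EGR2 12.8-fold (adjusted p = 5.79e-14), EGR3 1.97-fold (adjusted p = 0.000680) and EGR4 2.12-fold (adjusted p = 0.000313), beside 27.8% of all genes. The EGR3 call was lost without SIK3 4h replicate 2 (adjusted p = 0.0606).

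Of the 4 members, EGR3 had the largest difference between siRNA words in its 4h change. Its log2 change from CLM was 3.19 in Scr1 and 1.18 in SIK3, a difference of -2.01 (95% confidence interval -4.11 to 0.08, edgeR quasi-likelihood, adjusted p = 0.481). With the block the difference was -1.98 (adjusted p = 0.00322), and it passed in 7 of 8 omissions of a library. EGR1 differed by 0.79 without the block (adjusted p = 0.956) and by 0.70 with it (adjusted p = 0.00482), and passed in 5 of 8 omissions. Without the block 0 of 4 members passed, 0 of 4 at an unadjusted p under 0.05 and 0 of 4 by DESeq2 and by limma voom, beside 1.56% of all genes. With the block 2 of 4 passed, beside 12% of all genes. The Scr1 CLM and SIK3 CLM libraries enter this difference too, and EGR3 was lower in Scr1 CLM than in SIK3 CLM, on 12 and 9 counts against 22 and 31.

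The direct siRNA comparisons ask what SIK3 siRNA does at each time by the words of the files. At 30min EGR2 was 2.19-fold higher in SIK3 than in Scr1 (edgeR quasi-likelihood, adjusted p = 0.00951), 2.13- and 2.23-fold within the replicates. This was the only member call of the 3 comparisons without the block, against a background in which 37.8% of all genes passed at 30min, 38.6% at CLM and 39.5% at 4h. It was lost without Scr1 30min replicate 1 (adjusted p = 0.0894) or SIK3 30min replicate 2 (adjusted p = 0.0824). With the block it was 2.18-fold (adjusted p = 8.58e-09) and passed in 4 of 4 omissions.

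EGR1 was lower in SIK3 at every time in both replicates, by 1.62- and 2.25-fold at CLM, 2.02- and 1.51-fold at 30min, and 1.14- and 1.24-fold at 4h. Without the block these differences lay inside the gap between replicates, with log2 values of -1.06 (95% confidence interval -2.97 to 0.84), -0.70 (-2.55 to 1.15) and -0.27 (-2.16 to 1.62). With the block EGR1 was 1.96-fold lower at CLM (edgeR quasi-likelihood, adjusted p = 1.65e-07), 1.73-fold at 30min (adjusted p = 3.71e-07) and 1.20-fold at 4h (adjusted p = 0.0484). The first 2 calls were kept in 4 of 4 omissions of a library and the third in 1 of 4.

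EGR4 was higher in SIK3 at every time in both replicates. At CLM this rested on few counts, 13 and 7 in Scr1 and 24 and 25 in SIK3. EGR4 stood at 1.12 on the log2 scale at CLM (95% confidence interval -0.02 to 2.26, adjusted p = 0.113), 0.58 at 30min (-0.19 to 1.35, adjusted p = 0.220) and 1.12 at 4h (0.18 to 2.06, adjusted p = 0.0582). With the block it was 2.13-fold higher at CLM (edgeR quasi-likelihood, adjusted p = 0.0183), 1.49-fold at 30min (adjusted p = 0.0111) and 2.17-fold at 4h (adjusted p = 0.00173), calls kept in 2, 0 and 4 of 4 omissions.

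EGR2 at the other times stood at 0.01 at CLM (95% confidence interval -0.79 to 0.81) and at 1.03 at 4h (0.20 to 1.86, adjusted p = 0.0514), and with the block the 4h difference was 1.99-fold (adjusted p = 0.00271). That call was lost without Scr1 4h replicate 2 (adjusted p = 0.0623) and without SIK3 4h replicate 2 (adjusted p = 0.102). EGR3 changed sides, at 1.18 at CLM (-0.52 to 2.89, adjusted p = 0.255), 0.07 at 30min (-1.07 to 1.20) and -0.83 at 4h (-2.06 to 0.39, adjusted p = 0.261). With the block it was 2.22-fold higher at CLM (edgeR quasi-likelihood, adjusted p = 0.0118) and 1.78-fold lower at 4h (adjusted p = 0.00189), each kept in 2 of 4 omissions. In all, the block moved the members called from 0 to 3 of 4 at CLM, from 1 to 3 at 30min and from 0 to 4 at 4h, where 58.4%, 58.5% and 58.8% of all genes passed. At CLM 0 members had an unadjusted p under 0.05 without the block and at 4h 2 had, and DESeq2 called 0 at CLM and 1 at 4h, limma voom 0 at both. These shares of members are to be read against that background.

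**Figure D5:**
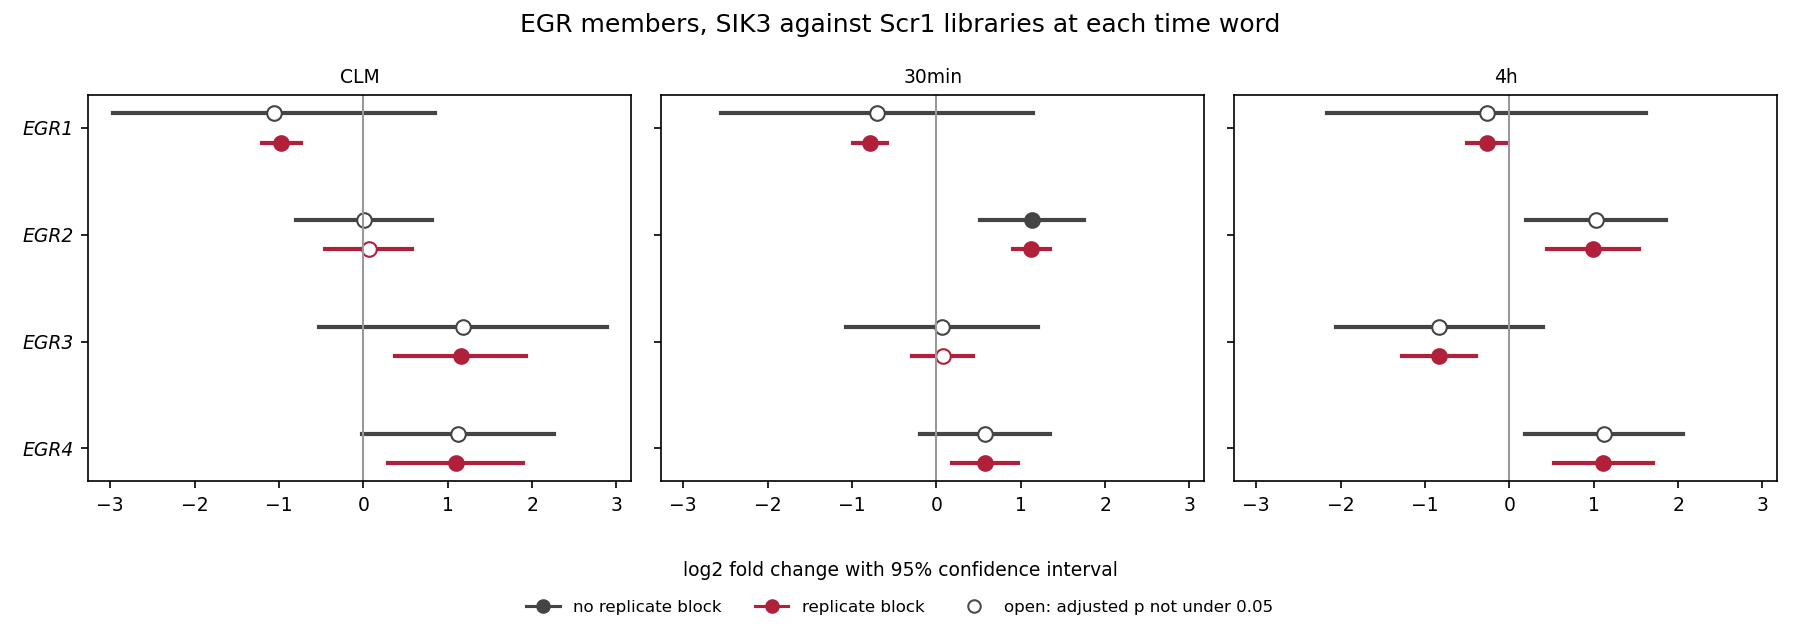
Log2 fold changes of the 4 members with 95% confidence intervals, SIK3 against Scr1 libraries at each time word, without (grey) and with (red) the replicate block. EGR2 at 30min, 2.19-fold higher, is the only filled grey point.

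Under the sample titles the same libraries make other comparisons. Scr1 30min against Scr1 CLM is then SIK3 siRNA against control siRNA in unstimulated cells, in which EGR2 and EGR4 rose as given above, while SIK3 mRNA was at 0.23 on the log2 scale (adjusted p = 1). Scr1 4h against Scr1 CLM is TNF-α for 30 min with control siRNA, in which EGR3 rose, EGR4 passed with the block only and in 2 of 4 omissions of a library, and EGR1 and EGR2 were at -0.33 and -0.48. The comparison of SIK3 4h with SIK3 30min is SIK3 siRNA against control siRNA at TNF-α 4 h.

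The other 4 title comparisons pair libraries that differ in both words of the files. For SIK3 siRNA at TNF-α 30 min (SIK3 CLM against Scr1 4h), EGR3 was 4.04-fold lower (edgeR quasi-likelihood, adjusted p = 0.0211), 1 of 4 members beside 42.5% of all genes, and with the block EGR1 was lower too (1.66-fold, adjusted p = 1.13e-05), beside 61%. Without the block the EGR3 call was lost without Scr1 4h replicate 2 (adjusted p = 0.177) or SIK3 CLM replicate 1 (adjusted p = 0.150). For TNF-α 4 h with control siRNA (SIK3 30min against Scr1 CLM), EGR2 was 18.7-fold, EGR3 10.1-fold and EGR4 11.0-fold higher, 3 of 4 members beside 37.9% of all genes, and 4 of 4 with the block beside 57.8%. For TNF-α 30 min with SIK3 siRNA (SIK3 CLM against Scr1 30min), all 4 were lower, EGR1 6.39-fold (adjusted p = 0.0358), EGR2 8.48-fold (adjusted p = 5.77e-05), EGR3 4.24-fold (adjusted p = 0.0179) and EGR4 3.39-fold (adjusted p = 0.00601), beside 40.1% of all genes and 59.8% with the block. Without the block the calls of EGR1, EGR3 and EGR4 were lost in 3, 2 and 1 of 4 omissions, and with it all 4 members kept theirs. For TNF-α 4 h with SIK3 siRNA (SIK3 4h against Scr1 30min), EGR2 was 5.84-fold lower (adjusted p = 0.000158), 1 of 4 members beside 41.8% of all genes, and 4 of 4 were lower with the block beside 61.7%. Of these block calls, that of EGR4 (adjusted p = 0.0463) was lost in each of the 4 omissions and that of EGR3 without SIK3 4h replicate 2 (adjusted p = 0.0521). By title, the 2 conditions with the highest means of EGR1, EGR2 and EGR4 would be unstimulated cells with SIK3 siRNA and control cells after TNF-α for 4 h.

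Of the corepressors that bind EGR factors, NAB2 was at 25.0 and 26.4 CPM in Scr1 CLM, 31.2 and 29.9 CPM in Scr1 30min, and 13.4 and 15.7 CPM in Scr1 4h. In the SIK3 libraries it was at 25.7 and 26.5, 35.0 and 34.0, and 20.6 and 17.8 CPM. Both 30min conditions lay above CLM, without passing (1.19-fold in Scr1, adjusted p = 1, and 1.32-fold in SIK3, adjusted p = 0.651), and the SIK3 value passed with the block (edgeR quasi-likelihood, adjusted p = 0.00855). At 4h NAB2 fell below CLM in Scr1 by 1.77-fold (adjusted p = 0.00189) and was 1.36-fold lower in SIK3 (adjusted p = 0.0694, 0.00162 with the block). From 30min to 4h it was 2.10-fold lower in Scr1 (adjusted p = 0.000308) and 1.80-fold lower in SIK3 (adjusted p = 0.00249). Between siRNA words at 4h NAB2 passed as higher in SIK3, by 1.55- and 1.13-fold within the replicates, beside 39.5% of all genes. At 30min neither corepressor passed between siRNA words without the block. NAB1 was at 108 to 222 CPM over the 12 libraries. It was 1.36-fold lower in SIK3 than in Scr1 at CLM (edgeR quasi-likelihood, adjusted p = 0.0453), beside 38.6% of all genes. It was higher at 4h than at 30min without overlap, 1.37-fold in Scr1 (adjusted p = 0.106, 2.40e-06 with the block) and 1.41-fold in SIK3 (adjusted p = 0.0945, 1.13e-06 with the block).

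Of 26 other immediate early genes, all measured, 11 rose and 0 fell in Scr1 30min against Scr1 CLM, with a median log2 change of 0.99 beside -0.00 for all genes, of which 0.294% passed. Those with the smallest p were the AP-1 genes JUN (2.55-fold) and JUNB (2.92-fold), IER2 (2.99-fold) and the stress factor ATF3 (2.10-fold). In SIK3 30min against SIK3 CLM 7 rose and 0 fell beside 0.15% of all genes, at a median of 0.66, with ATF3 at 2.53-fold, JUNB at 2.87-fold, IER2 at 2.69-fold and FOS, the partner of JUN, at 3.65-fold. With the block 18 rose and 0 fell in Scr1, beside 2.78% of all genes, and 17 rose and 3 fell in SIK3, beside 3.37%. At 4h 11 rose and 1 fell in Scr1, the 1 being FOS (3.51-fold lower), and 11 rose and 0 fell in SIK3, beside 8.99% and 4.42% of all genes. With the block these were 19 and 4 in Scr1 and 21 and 0 in SIK3, beside 23.5% and 21.8%. BTG2 was 6.99-fold higher in Scr1 4h than in Scr1 CLM.

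The factors and kinases upstream of these genes act mainly through phosphorylation, and only their mRNA was measured here. At 30min, of 6 genes of SRF and its cofactors and of 8 MEK and ERK pathway kinases, 0 passed in either siRNA word without or with the block (edgeR quasi-likelihood, 0 at an unadjusted p under 0.05 as well). Between siRNA words at CLM, SRF was 1.50-fold higher in SIK3 (adjusted p = 0.0416) and MAPK3, which encodes ERK1, 4.76-fold higher (adjusted p = 4.49e-06).

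Of 18 genes described as EGR1 targets, 0 passed at 30min in Scr1 (edgeR quasi-likelihood, 0 at an unadjusted p under 0.05) and 0 in SIK3 (5 at an unadjusted p under 0.05), and with the block 1 rose and 1 fell in Scr1 and 2 rose and 3 fell in SIK3, beside 2.78% and 3.37% of all genes. At 4h 3 rose and 3 fell in Scr1, with the stress cytokine gene GDF15 6.34-fold lower, and 2 rose and 0 fell in SIK3, beside 8.99% and 4.42% of all genes. With the block these were 8 and 3 in Scr1 and 7 and 6 in SIK3, beside 23.5% and 21.8%. Between siRNA words 8 were higher and 0 lower in SIK3 at CLM, 7 and 1 at 30min, and 9 and 0 at 4h, where 38.6%, 37.8% and 39.5% of all genes passed, with THBS1 (thrombospondin 1) leading at 7.55-fold at CLM (adjusted p = 3.91e-07). With the block these were 10 and 4 at CLM, 10 and 3 at 30min, and 10 and 3 at 4h, beside 58.4%, 58.5% and 58.8% of all genes. The list medians there were 0.36, 0.29 and 0.37 on the log2 scale beside 0.01, -0.01 and 0.03 for all genes.

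Genes whose log2 CPM followed a member most closely over the 12 libraries were taken from 14685 genes, as a description without a test. For EGR1 they were FOSB (Pearson r = 0.94), CASTOR2 (0.92), KLF3 (0.92), PRDM10 (0.90) and FOXA2 (0.89), and among those for EGR2 were FOS (0.85), ZNF638 (0.84), INTS13 (0.83) and SOX21 (0.82). EGR3 was most like the chemokine gene CXCL2 (0.91), TRIB1 (0.91), ELF3 (0.91), BHLHE40 (0.91) and the chemokine gene CXCL1 (0.89). EGR4 was most like NR4A1 (0.91), TRIB1 (0.91), NR4A2 (0.88), JUN (0.86) and NYAP1 (0.85). The libraries share conditions and replicate numbers, so these values are not independent. Taking the mean of each replicate number out first, a choice made after seeing the data, put IER2 (0.96) first for EGR1 and left CXCL2 (0.93) and BHLHE40 (0.94) among the closest to EGR3. None of the genes named above for EGR1, FOSB included, then stayed among its 5 closest. Of those named for EGR2 only ZNF638 (0.93) did, and FOS did not. Among the members, EGR3 and EGR4 were at 0.83, EGR2 and EGR4 at 0.82, EGR1 and EGR2 at 0.69, and the other pairs at 0.56 to 0.59.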

How the data were processed

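Total RNA had been extracted with RNeasy and DNase I, and libraries made with ScriptSeq, per the labels' protocols. Each library's deposited table gives raw read counts, 1 whole number for every gene. The submitters' processing notes name STAR 2.05b, edgeR and GRCh38. The annotation release and the strand setting are not given in the sources used here. Symbols and positions came from GENCODE 29, and 3742 identifiers had no symbol.

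Counts were fitted in R 4.3.3 with edgeR 4.0.16: genes kept by filterByExpr (minimum count 10), TMM scaling, a quasi-likelihood fit of all 12 libraries in 6 groups without a block (6 residual degrees of freedom), and Benjamini-Hochberg adjustment over 16695 genes with a threshold of 0.05. The fit without the block was first tried on simulated counts that held no effect of the replicate number. The fit with the block was not tried in this way. Levels are TMM-scaled CPM and folds come from the fit. Replicates within a condition differed by a chi-square of 15.7 to 32.3 per degree of freedom, above counting error. Nothing beyond the label biological replicate says how they were separated, so p-values measure the spread between these libraries.

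Same-numbered replicates deviated together in 15 of 15 pairs of conditions (correlation across genes 0.35 to 0.53, median 0.42). The numbers were therefore taken as pairing the libraries, and values with the replicate number as a block stand beside those without it where calls change.

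Named genes were the 4 members, SIK3, NFKBIA and TNFAIP3, up to 4 genes per list with the smallest p in a comparison, and the 5 genes closest to each member by correlation; some genes that this rule names are not reported here. KRT7 and the other cell type markers came from a list of their own, and BTG2 was named beside FOS among the first 4 of its list. The members and lists were chosen with earlier results of these data known. Alternatives were the block, DESeq2 1.42.0 size factors and Wald test, limma 3.58.1 voom, library totals, an adjusted p under 0.01, fits of only the libraries compared, no filter or a stricter one (CPM of 1 or more in 4 or more libraries), and leaving out each library. The block together with left-out libraries was chosen after seeing the data. Figures were drawn with matplotlib 3.10.9 in Python 3.11.15.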

Additional observations from a re-analysis of the deposited data

Results flagged for a closer look

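The change from CLM to 4h differed between the SIK3 and Scr1 libraries for 2 members when the replicate number was a block (edgeR quasi-likelihood). In that test 12% of all genes passed. EGR1 differed by 0.70 on the log2 scale. It was 1.38-fold higher in SIK3 4h than in SIK3 CLM, a call kept in 2 of 4 omissions of a library. In Scr1 4h it was 1.18-fold lower than in Scr1 CLM, which did not pass (edgeR quasi-likelihood with the block, adjusted p = 0.124). Within replicates that Scr1 change was 1.03-fold higher in replicate 1 and 1.36-fold lower in replicate 2. EGR3 differed by -1.98, with a rise of 2.19-fold in SIK3 and 8.62-fold in Scr1. Its Scr1 CLM level rested on 12 and 9 counts. With the block and a library left out, the difference passed in 5 of 8 omissions for EGR1 and in 7 of 8 for EGR3. Without the block neither passed (adjusted p = 0.956 for EGR1 and 0.481 for EGR3). By title these 4 conditions are no pair of matched changes, so the difference has this meaning only under the words of the files.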

How the results depend on the processing

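The number of members called depended on the replicate block and on the filter more than on the scaling. With the replicate block, members called were 4 of 4 in Scr1 30min and SIK3 30min against CLM, 2 in Scr1 4h and 3 in SIK3 4h against CLM, 4 in SIK3 4h against SIK3 30min, 3, 3 and 4 for SIK3 against Scr1 at CLM, 30min and 4h, 2 for the interaction at 4h, 2 for SIK3 CLM against Scr1 4h and 4 for SIK3 4h against Scr1 30min. Without a filter on low counts, in the same order, they were 4, 4, 2, 2, 4, 3, 2, 3, 2, 2 and 3. At an adjusted p under 0.01 they were 1 in Scr1 30min and 0 in Scr1 4h against CLM, 1 in Scr1 4h against Scr1 30min, 0 for SIK3 CLM against Scr1 4h and 2 for SIK3 CLM against Scr1 30min. The libraries compared alone gave 0 in Scr1 30min, Scr1 4h and SIK3 30min against CLM, 1 in Scr1 4h against Scr1 30min and 2 for SIK3 4h against Scr1 30min. Limma voom gave 1 in Scr1 30min and 0 in Scr1 4h against CLM, and the DESeq2 Wald test 3 in SIK3 30min against CLM and 1 for SIK3 against Scr1 at 4h, where library totals gave 2 and the stricter filter 1. The cause was not tested. Shares of all genes that passed are given above only for the fits without and with the block. The counts for the other settings, and for the omissions below, have no such share beside them. They show only how calls moved with the setting, and cannot be read as results about the members.

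Leaving out 1 library gave 0 to 1 members called in Scr1 30min and in Scr1 4h against CLM, 1 to 2 in Scr1 4h against Scr1 30min, 0 to 1 for SIK3 against Scr1 at 30min and at 4h and for SIK3 CLM against Scr1 4h, and 1 to 4 for SIK3 CLM against Scr1 30min. The block changed no call of a member other than those given. Log2 values that changed sign under another setting were those of EGR4 in the interaction at 4h (-0.041 with DESeq2 size factors, -0.076 with the Wald test, -0.059 with the libraries compared alone), EGR4 in SIK3 CLM against Scr1 4h (0.0053 with library totals) and EGR2 in SIK3 CLM against Scr1 CLM (-0.0023 without a filter). Leaving out 1 library without the block, EGR1 changed sign in 9 comparisons: it ranged from -1.18 to 0.88 in Scr1 4h against CLM, -0.30 to 1.29 in SIK3 4h against CLM, -1.89 to 0.13, -1.86 to 0.099 and -1.04 to 0.58 for SIK3 against Scr1 at CLM, 30min and 4h, -1.56 to 0.13 for SIK3 CLM against Scr1 4h, -0.24 to 2.10 for SIK3 30min against Scr1 CLM, and in the interactions from -0.86 to 1.19 at 30min and -0.42 to 1.62 at 4h. Such an omission leaves the conditions with unequal shares of the 2 replicate numbers. EGR2 ranged from -0.012 to 0.88 in SIK3 4h against CLM and -0.25 to 0.24 in SIK3 CLM against Scr1 CLM, EGR3 from -0.89 to 0.54 in Scr1 4h against Scr1 30min and -0.45 to 0.66 in SIK3 30min against Scr1 30min, and EGR4 from -0.51 to 0.66 in the interaction at 4h and -0.67 to 0.55 in SIK3 CLM against Scr1 4h. None of these signs belonged to a value called without the block.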
